A study of Mus musculus with 4 samples.

Results

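The comparison set the array from Sall4-null embryonic stem (ES) cells grown on feeder cells against the array from the same null line grown without them, 1 array a side. It was described across all named genes. Of 18193 genes with a probe set of their own, 11559 had a signal above 17.1, the median signal of all arrays, on the brighter of the null arrays, and these are called measured. The other 6634 genes were left out of counts and medians. Near that limit, the brighter signal was 17.2 for the last gene kept, 1600012P17Rik, and 17.1 for the first left out, A330102I10Rik. Differences are log2(signal + 4.6) on the array with feeders minus the array without, and every fold given is on this scale, where the offset pulls weak genes towards equality. A gene counted as higher or lower where that difference reached 2-fold. There was 1 array per group and no detection call, so no spread between replicates was measured, no test was made, and precision is limited by how many arrays there were.

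The series holds 4 arrays of mouse ES cells of the E14.1 strain, 1 for each combination of Sall4 genotype and feeders. The null cells were delta/- at Sall4 (line KO1) and the heterozygous cells flox/- (line HET18), so each genotype is 1 line and a difference between lines cannot be told apart from one between genotypes. Cells of both genotypes carried a blasticidin-resistance gene (BSD) behind an IRES, targeted to Oct3/4, and all cultures received leukaemia inhibitory factor (LIF), fetal calf serum and blasticidin. The cultures without feeders grew on gelatin, and those with feeders on fibroblasts resistant to blasticidin. Median signals ran from 16.1 to 18 over the 4 arrays, and the ratio of 3' to 5' actin signals from 1.22 to 1.29.

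Feeder cells are embryonic fibroblasts that support ES cells with an adhesive matrix and secreted factors, LIF among them. Fibroblasts are rich in transcripts of collagens, matrix glycoproteins and mesenchymal transcription factors. ES cells are rich in Pou5f1, Nanog, Sox2 and related transcripts, and carry epithelial junctions. Whether feeders were removed before RNA extraction is not given in the sources used here. In such bulk cultures, fewer cells of a type and less RNA per cell cannot be told apart.

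Sall4, whose zinc finger product regulates transcription in ES cells, read 1670.5 in null cells without feeders and 1452.4 with them, against 1126.5 and 780.8 in heterozygous cells. The labels do not say which part of the gene was deleted, and the place of the probe set in the gene was not known, so this signal checks nothing about the genotype. Pou5f1, the gene of Oct3/4 that carried the selection, read 977 in null cells without feeders and 1187.4 with them, a log2 difference of 0.28.

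Between the null arrays, 844 measured genes (7.30%) were at least 2-fold higher with feeders and 314 (2.72%) at least 2-fold lower, while 10401 lay between. In the heterozygous pair, 1025 of 11606 genes (8.83%) were higher and 225 (1.94%) lower. The median difference over all measured genes in the null pair was 0.04, the standard deviation across genes 0.705, and 5% of genes lay below -0.74 and 5% above 1.24. At larger folds the ratio of higher to lower genes was larger: 372 genes were at least 3-fold higher and 103 lower, 238 at least 4-fold higher and 43 lower, 90 at least 8-fold higher and 5 lower, and 40 at least 16-fold higher against 0 lower. Of 2736 genes with a brighter signal of at most 50, 11.4% were higher and 4.46% lower. Of the 4600 genes above 200, 4.17% were higher and 1.89% lower. Where a called gene had several bright probe sets, these mostly had 1 sign: 282 of 300 higher genes (94.0%) and 102 of 116 lower genes (87.9%). All of a gene's bright probe sets passed 2-fold in 174 and 47 of them.

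**Figure D1:**
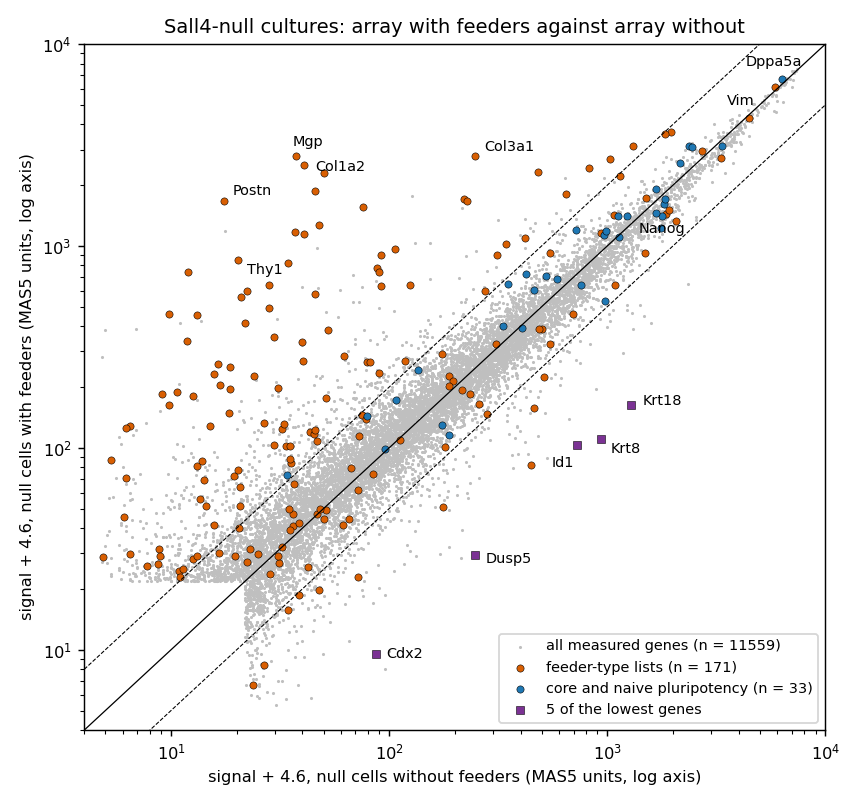
Signal plus 4.6 of each measured gene on the null array with feeders (vertical, log axis) against the null array without feeders (horizontal, log axis), with the line of equality and dashed lines at 2-fold. Genes of the feeder-type lists (orange) spread above the upper line, up to Postn at 96.3-fold, while genes of core and naive pluripotency (blue) lie along the diagonal and Krt8, Krt18, Id1, Dusp5 and Cdx2 below the lower line.

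Of the 15 genes highest with feeders, 10 encode matrix, surface or enzyme products in the feeder-type lists given further on. Postn, which encodes the matrix protein periostin, read 12.8 in null cells without feeders and 1671.3 with them, a log2 difference of 6.59. Mgp, the gene of matrix Gla protein, read 32.7 and 2798.3 (6.23). Col1a2, which encodes a chain of type I collagen, read 36.2 and 2506.4 (5.94). All 3 were low on the array without feeders and bright on the other. Thbs2, the gene of the matrix glycoprotein thrombospondin 2, went from 7.4 to 739.5 (5.95), and Aspn, the gene of the proteoglycan asporin, from 2.3 to 382.7 (5.81). Thy1, a surface glycoprotein of fibroblasts, read 15.7 and 848.2 (5.39). The remaining genes among the 15 highest were Lyz1, S1pr3, Agtr2, Col6a3, Bgn, Lox, Cavin2, Fbln5 and S100a4, with log2 differences from 4.97 to 6.26. Of these, S1pr3 is a receptor for sphingosine-1-phosphate, with 13 and 1174.7, and Agtr2 a receptor for angiotensin II, with 0.2 and 278.3. In the heterozygous pair the same 15 genes were also higher with feeders, by 4.36 for Agtr2 up to 7.96 for Mgp.

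The promoters of Col1a2 and Thbs2 are shown as those of bright genes among the highest. They are the 250 bases before the RefSeq start in build GRCm38.p6, read 5′ to 3′ on the gene's strand. Capitals mark matches, on either strand, to the CCAAT box (CCAAT) or the TATA box (TATAAA). The other motifs searched were the AP-1 site (TGANTCA) and the CArG box, which binds serum response factor and can overlap TATA letters. Col1a2 lies at chr6:4505368-4505617 on the plus strand and holds a CCAAT box 109 bases before the start. Thbs2 lies at chr17:14694263-14694512 on the minus strand and holds CCAAT boxes 186 and 144 bases and a TATA box 126 bases before the start.
Col1a2: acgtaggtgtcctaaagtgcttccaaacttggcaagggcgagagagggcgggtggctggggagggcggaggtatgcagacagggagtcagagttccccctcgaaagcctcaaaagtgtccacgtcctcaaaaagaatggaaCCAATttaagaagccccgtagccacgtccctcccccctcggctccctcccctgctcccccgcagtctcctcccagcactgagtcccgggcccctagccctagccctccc
Thbs2: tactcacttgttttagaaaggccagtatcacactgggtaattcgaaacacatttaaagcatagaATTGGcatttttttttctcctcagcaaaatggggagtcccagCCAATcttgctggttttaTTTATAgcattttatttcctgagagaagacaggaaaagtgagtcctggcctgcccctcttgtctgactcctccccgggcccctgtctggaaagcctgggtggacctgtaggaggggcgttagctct

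A promoter was listed for 9352 of the 11559 measured genes, and for 168 of the 238 genes at least 4-fold higher with feeders. The TATA box was found in 15.5% of those 168 and in 6.28% of the 9352, and the AP-1 site in 9.52% and 3.87%. The CCAAT box was found in 25.6% and 36.8%, and the CArG box in 1.79% and 1.18%. Among the 230 promoters of genes at least 2-fold lower with feeders, the shares were 8.26% for TATA, 6.52% for AP-1, 33.5% for CCAAT and 2.17% for CArG. A match describes the letters of the window and is not a binding site.

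The feeder-type lists, 10 lists of genes that fibroblasts are known for, held 201 genes on the array, and 171 of these were measured. In the null pair, 100 of the 171 were higher with feeders, 10 lower and 61 between. The median was 1.39, against 0.04 over all measured genes, of which 7.30% were higher and 2.72% lower. A gene that is measured only because it is bright with feeders had to differ, so these counts describe the lists and support nothing further. The summed signal of all 201 genes was 50936 in null cells without feeders and 101329.5 with them. In heterozygous cells the sums were 26597.4 and 83231.3. The array without feeders therefore read higher for these genes in the null line, and the signal was above the median of 17.1 for 124 of the 201, against 94 in heterozygous cells without feeders. On the arrays with feeders the counts were 166 and 157. The null array without feeders exceeded the heterozygous array without feeders in 162 of the 201 genes, and in 8990 of all 18193. With feeders the null array was also the brighter in 150 of the 201, and in 9331 of all 18193.

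Fibrillar collagens and the enzymes that process them had the highest list median, 3.25, with 13 of 17 measured genes higher and 0 lower. Col1a1, the other chain of type I collagen, read 36 in null cells without feeders and 1135.6 with them (4.81), and 1.5 and 626.6 in heterozygous cells. Col3a1, the gene of type III collagen, already read 243.7 in null cells without feeders and 2776.5 with them (3.49), against 19.2 and 1992.4 in heterozygous cells (6.39). Lox, which encodes the collagen cross-linking enzyme lysyl oxidase, read 40.9 and 1871.5 (5.37), although its 3 bright probe sets ranged from 1.52 to 5.51. Plod2, a lysyl hydroxylase gene, read 538.5 and 320.3 (-0.74), and Serpinh1, the gene of a collagen chaperone, 1066.1 and 1418.6 (0.41).

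Among 22 measured matrix glycoproteins and proteoglycans, 18 were higher and 0 lower, with a median of 2.57. Bgn, the gene of biglycan, read 45.8 and 2291.8 (5.51), and Fbln5, the gene of the elastic fibre protein fibulin 5, 8.6 and 450.2 (5.11). Dcn, the gene of the proteoglycan decorin, read 23.6 and 633.1 (4.50), and Lum, the gene of lumican, 17.3 and 408.4 (4.24). Others were already bright without feeders. Fn1, the gene of fibronectin, read 1835.4 and 3579.3 (0.96). Sparc, which encodes a matrix-binding glycoprotein, read 1303.9 and 3119.6 (1.26, and 0.65 as the mean over its probe sets). Its 2 bright probe sets were at 1.26 and 1.31, and the mean takes in a weak one as well. Tnc, the gene of tenascin C, read 223.9 and 1664.6 (2.87), against 29.3 and 1397.3 in heterozygous cells (5.37).

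Surface and cytoskeleton markers of fibroblasts split further, with 11 of 18 measured genes higher, 1 lower and a median of 1.57. S100a4, a calcium-binding protein of fibroblasts, read 32.5 and 1161.4 (4.97), and Cdh11, a mesenchymal cadherin, 43.2 and 1264.6 (4.73). Cd44, the hyaluronan receptor, read 86.7 and 900.9 (3.31), and Pdgfra, a receptor for platelet-derived growth factor, 35.7 and 263.3 (2.73). The intermediate filament gene Vim was as bright without feeders as with them in null cells, at 4448.5 and 4317.3 (-0.04), but read 1730.3 and 3794.5 in heterozygous cells (1.13). Anxa1 and Lgals1 were likewise bright on both null arrays, with 3302.8 and 2716.6 for Anxa1 in null cells, and 5851.7 and 6134.3 for Lgals1. The lower gene was Cdh2, which encodes N-cadherin, at 456.1 and 153 (-1.55).

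Contractile actin genes had a median of 0.14, with 3 of 15 measured genes higher and 0 lower. Those 3 were Actg2, at 10.5 and 123.6 (3.09), Myl9, at 119.5 and 638.4 (2.37), and Cnn1, at 42 and 103.2 (1.21). Acta2, smooth muscle actin, read 1958.4 and 3679.2 in null cells (0.91), and 732.9 and 2653.5 in heterozygous cells (1.85). Tagln, Cald1 and Tpm2 lay between 0.11 and 0.32, and Cnn2, Vcl, Tpm1 and Csrp1 between -0.76 and -0.60.

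Of 16 measured mesenchymal transcription factors, 8 were higher and 1 lower, with a median of 1.02. Prrx1, a homeobox gene of limb and craniofacial mesenchyme, read 23.4 and 489.1 (4.14), Nfix 11.8 and 255 (3.99), and Snai2, a repressor of epithelial genes, 83.7 and 768.6 (3.13). Twist2 read 26.3 and 192.7 (2.67), while Twist1 read 30.1 and 45.1 (0.52). The lower gene was Foxf1, at 29.6 and 11.2 (-1.11). Hox genes, which record position along the body axis, had a median of 1.10 with 9 of 16 measured genes higher and 1 lower. Hoxb3 read 9.3 and 81.6 (2.63), Hoxc8 15.7 and 72.7 (1.93) and Hoxc6 14.9 and 68 (1.90). Hoxd9 was the lower gene, at 34 and 14.1 (-1.05), and read 3.1 and 10.9 in heterozygous cells. With an offset at the median signal the Hox median was 0.66, so its place above 2-fold depends on the offset.

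Of 18 matrix proteases and inhibitors, 13 were higher and 2 lower, with a median of 1.51. Mmp3, a stromelysin, read 7.2 and 333.4 (4.84), Timp3, an inhibitor of matrix metalloproteases, 85 and 740.3 (3.06), and the protease gene Ctsk 1.9 and 123.5 (4.30). The lower genes were Plaur, the urokinase receptor, at 440.8 and 77.9 (-2.43), and Mmp9, at 67.3 and 18.4 (-1.64). Of 31 measured growth factors and antagonists, 15 were higher and 3 lower, with a median of 0.95. Ptn, the gene of pleiotrophin, read 71 and 1551.6 (4.36), Dkk2, a Wnt antagonist, 1.6 and 120.1 (4.33), and Fgf7, a fibroblast growth factor, 5.2 and 159.3 (4.06). Igf2 read 816.2 and 2424.7 (1.57). The lower ones were Nog and Chrd, which encode antagonists of bone morphogenetic protein (BMP), at 19.2 and 2.1 and at 22.2 and 3.8, and Tgfb2, at 171 and 46.2 (-1.79). Lif itself read 38 without feeders and 21.2 with them (-0.72), and 23.9 and 43.6 in heterozygous cells. Kitl, the ligand of the receptor Kit, read 183.1 and 198.8 in null cells, against 82.4 and 270.5 in heterozygous cells.

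Of 12 measured chemokines and cytokines, 7 were higher and 1 lower, with a median of 2.01. The chemokine genes Ccl7, Ccl2 and Cxcl14 read 6 and 184.9, 8 and 175.8, and 14.1 and 247.9. Il6 read 0.3 and 24.2 in null cells, and 0.1 and 96.8 in heterozygous cells. Cxcl10 was the lower gene, at 43 and 15.1 (-1.27). Of the 6 IGF binding proteins, 3 were higher and 1 lower, with a median of 0.68. Igfbp7 read 41.1 and 573.2 (3.66), and Igfbp4 506.7 and 218.9 (-1.19). The 6 bright probe sets of Igfbp4 ran from -1.19 to 0.08, and their mean was -0.88. Igfbp5 read 27.6 and 27.7 (0.004), but its other bright probe set was at 3.09. The count of higher genes and the median of this list therefore depend on the probe set read.

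**Figure D2:**
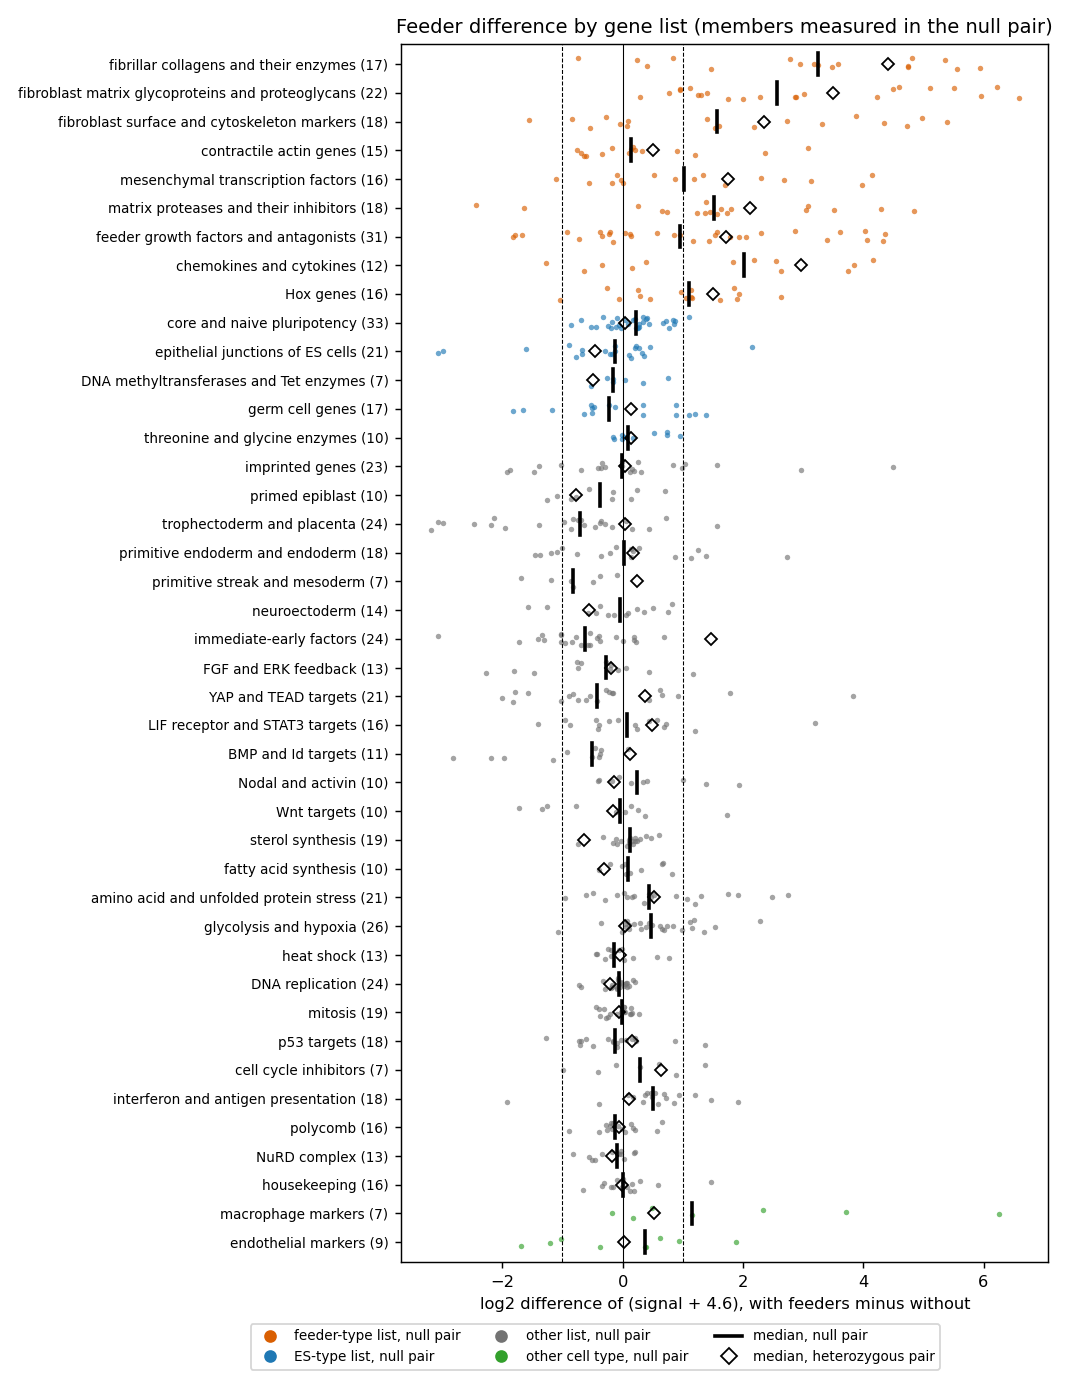
Log2 difference with feeders minus without for each measured member of the lists with at least 7 measured genes (points, spread vertically only to separate them), with the list median in the null pair (bar) and in the heterozygous pair (diamond), and dashed lines at 2-fold. Collagens and matrix glycoproteins have the highest medians, 3.25 and 2.57 in null cells and 4.41 and 3.50 in heterozygous cells, and immediate-early factors have medians on opposite sides of 0, at -0.63 and 1.47.

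A class was also set apart without a list, as the genes at least 2-fold higher with feeders in the heterozygous pair, which shares no array with the null pair. It is not made of feeder-type genes alone, since it holds 17 of the 28 immediate-early factors measured in heterozygous cells. Of 1025 such genes, 939 were measured in the null pair. There, 505 (53.8%) were also at least 2-fold higher, against 7.30% of all measured genes, and 9 (0.958%) were lower. Their median difference was 1.09 in null cells and 1.57 in heterozygous cells, and it was larger in heterozygous cells for 731 of the 939. The median signals with feeders were 89.2 in null and 87.6 in heterozygous cells, and without feeders 33.8 and 20.5. The null array without feeders was the brighter of the arrays without feeders for 79.6% of these genes, and for 48.1% of the 9973 genes of neither class. The class is chosen by the heterozygous difference. The larger differences in heterozygous cells, and the low values on the heterozygous array without feeders, therefore follow in part from the rule. Among the 9973 genes of neither class, 246 (2.47%) were higher with feeders in the null pair and 185 (1.86%) lower.

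Seen from the null pair, 752 of its higher genes were measured in both pairs, and the 505 shared genes were 67.2% of them. Among lower genes, 69 were lower in both pairs, 26.2% of 263 in the null pair and 37.1% of 186 in the heterozygous pair. In opposite directions, 9 genes were lower in the null pair and higher in the heterozygous pair, and 1, Lefty2, the reverse. Over the 11098 genes measured in both pairs, Pearson's correlation of the differences in both lines was 0.701, and Spearman's was 0.519. These are descriptions across genes, which are not independent replicates.

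Genes of core and naive pluripotency lay near the diagonal on the null arrays. All 33 members on the array were measured, and 1 was higher, 0 lower and 32 between, with a median of 0.23 and a heterozygous median of 0.03. Their summed signal was 38776.3 without feeders and 41557.2 with them. Nanog, a homeobox gene of the naive state, read 1232.1 and 1394.4 (0.18), and Sox2, the partner of Oct3/4, 2147.1 and 2573.6 (0.26). Zfp42, which encodes the marker Rex1, read 2432 and 3080.6 (0.34), and Dppa5a 6312 and 6728 (0.09). The nuclear receptor gene Esrrb read 347.1 and 640.8 (0.88), Prdm14 74.9 and 139.3 (0.86), Klf2 419.7 and 720.8 (0.77) and Klf4 715.6 and 1188.4 (0.73). Dppa3, a maternal factor also expressed in germ cells, was the gene past 2-fold, at 29.5 and 68.4 (1.10), and read 219.2 and 251.8 in heterozygous cells. It fell short of 2-fold with an offset at the median signal (0.88) and under quantile normalization (0.999). At the other end were Lin28a, an RNA-binding protein gene, at 967.4 and 530.9 (-0.86), Tbx3, at 184.2 and 111.6 (-0.70), and Dnmt3l, at 1758.7 and 1219.6 (-0.53).

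**Figure D3:**
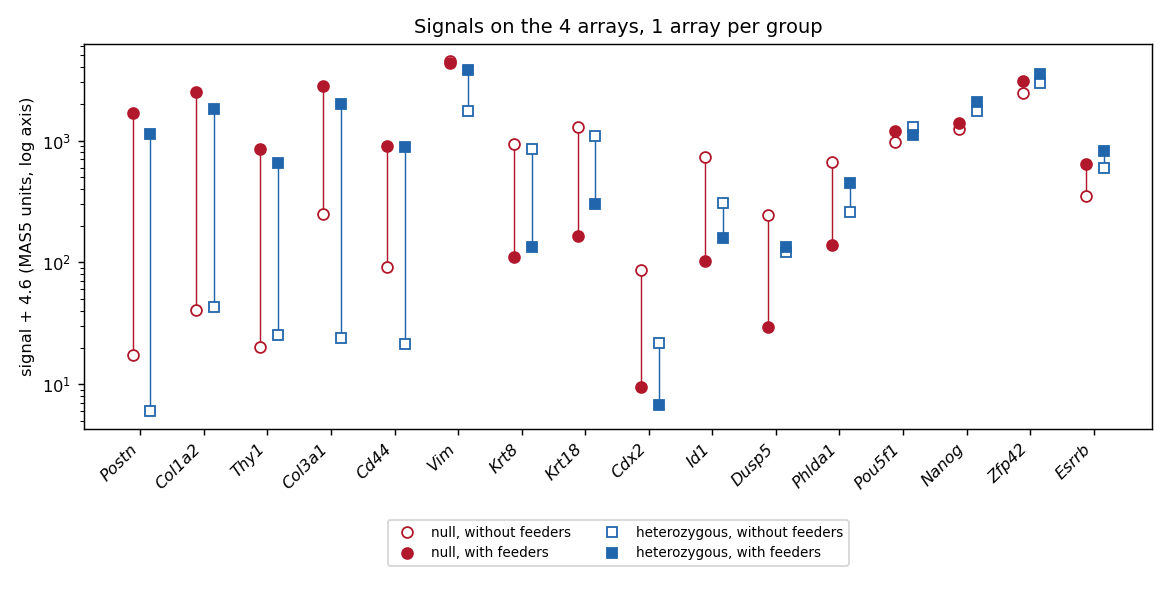
Signal plus 4.6 on a log axis for 16 genes in null cells (red circles) and heterozygous cells (blue squares), without feeders (open) and with feeders (filled), 1 array per symbol. Postn, Col1a2, Thy1, Col3a1 and Cd44 are higher with feeders in both lines, Krt8, Krt18, Cdx2 and Id1 lower in both, and Pou5f1, Nanog and Zfp42 nearly level, while Vim, Dusp5 and Phlda1 have different orders in the lines.

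The other ES-type lists stayed near 0 by their medians, but held some of the lowest genes. Of 21 measured epithelial junction genes, 1 was higher and 3 lower, with a median of -0.12. Cdh1, which encodes E-cadherin, read 751.6 and 807.1 (0.10), and Epcam, an epithelial adhesion gene, 1190.2 and 1314.1 (0.14). The keratin genes Krt8 and Krt18, whose products pair in the filaments of simple epithelia, were both far lower with feeders. Krt8 read 932.8 and 106.6 in null cells (-3.08), and 847.1 and 128.1 in heterozygous cells (-2.68). Krt18 read 1284.2 and 159 in null cells (-2.98), and 1086.6 and 295.5 in heterozygous cells (-1.86). The desmosome gene Dsp was lower as well, at 382.2 and 121.8 (-1.61). Rab25, a GTPase gene of epithelia, was the higher one, at 3.8 and 32.9 (2.16), and read 47.7 and 56.5 in heterozygous cells.

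In the 17 measured germ cell genes, 3 were higher and 3 lower. Prdm1, Tdrd12 and Dppa3 were higher, at 1.38, 1.20 and 1.10, and Stra8, Ddx4 and Sycp1 lower, at -1.81, -1.66 and -1.17. Stra8, a gene of entry into meiosis, read 200.4 and 53.7 in null cells, against 86.6 and 79.8 in heterozygous cells. The lists of DNA methyltransferases and Tet enzymes (7 measured) and of threonine and glycine enzymes (10 measured) had 0 genes past 2-fold. Dnmt3b, a de novo methyltransferase, read 1372.5 and 1232 in null cells (-0.15), and 2446.2 and 1300.9 in heterozygous cells (-0.91). Over the ES-type lists together, 4 of 85 measured genes were higher and 6 lower, with a median of 0.03. Over all measured genes the shares were 7.30% and 2.72%.

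The 15 lowest genes included transcription factors, signalling genes and keratins. Ifi202b, an interferon-inducible gene, had the largest difference, from 90.6 without feeders to 3.4 with them (-3.57), and read 13.4 and 1.1 in heterozygous cells. Nts, which encodes the peptide neurotensin, read 95 and 5.3 (-3.33). Cdx2, the homeobox factor of trophectoderm, read 82.2 and 4.9 in null cells (-3.19), and 17.1 and 2.1 in heterozygous cells. Ets1, a transcription factor gene, read 523.3 and 84.7 in null cells (-2.56), and 117.8 and 80.1 in heterozygous cells. Id1, a target of BMP signalling, read 722.5 and 98.2 in null cells (-2.82), and 302.4 and 154.9 in heterozygous cells (-0.94). For each of the 15 the null array without feeders was the brightest of the 4, which follows in part from choosing genes that were high on it. The others among the 15 lowest were Dusp5, Krt8, Krt18, Cited1, Coch, Rrad, Sct, Gbp2b, Olig3 and Nrk. All of them but Dusp5 (0.13) were also lower with feeders in heterozygous cells, from -0.53 for Cited1 to -2.75 for Gbp2b.

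The promoters of Krt8, Krt18 and Cdx2 are shown because these trophectoderm genes were lower together, and that of Dusp5 because its order differed between the lines. Krt8 lies at chr15:102004343-102004592 on the minus strand, Krt18 at chr15:102027966-102028215 on the plus strand, Cdx2 at chr5:147307250-147307499 on the minus strand and Dusp5 at chr19:53528895-53529144 on the plus strand, again as the 250 bases before the RefSeq start in GRCm38.p6. Capitals mark the CCAAT box of Cdx2, 72 bases before the start, and adjoining CArG boxes of Dusp5, 82 and 72 bases before it. The windows of Krt8 and Krt18 hold none of the 4 motifs searched, which says only that these letters are not there.
Krt8: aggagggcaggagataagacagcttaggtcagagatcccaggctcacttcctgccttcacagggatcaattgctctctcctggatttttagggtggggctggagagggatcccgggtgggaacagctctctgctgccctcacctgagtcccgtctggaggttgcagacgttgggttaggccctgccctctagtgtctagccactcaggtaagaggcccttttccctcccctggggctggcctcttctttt
Krt18: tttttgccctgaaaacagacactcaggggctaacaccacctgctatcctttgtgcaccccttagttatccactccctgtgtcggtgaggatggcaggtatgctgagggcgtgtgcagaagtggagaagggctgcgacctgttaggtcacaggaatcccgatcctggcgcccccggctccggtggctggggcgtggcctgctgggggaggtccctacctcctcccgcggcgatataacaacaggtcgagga
Cdx2: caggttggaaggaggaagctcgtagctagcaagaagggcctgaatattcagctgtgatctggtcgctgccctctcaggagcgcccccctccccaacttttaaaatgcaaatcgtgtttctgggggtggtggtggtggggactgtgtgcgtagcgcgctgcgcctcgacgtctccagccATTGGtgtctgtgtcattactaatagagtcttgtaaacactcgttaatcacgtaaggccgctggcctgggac
Dusp5: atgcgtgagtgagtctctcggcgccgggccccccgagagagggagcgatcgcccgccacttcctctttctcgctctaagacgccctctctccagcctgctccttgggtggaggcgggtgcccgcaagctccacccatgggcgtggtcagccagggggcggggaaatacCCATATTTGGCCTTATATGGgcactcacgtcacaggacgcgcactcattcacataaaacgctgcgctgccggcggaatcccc

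Lists of other early lineages were read the same way, beside 7.30% higher and 2.72% lower over all measured genes in the null pair. A gene measured through only 1 of the null arrays could only come out brighter on that array. The counts therefore describe the lists and support nothing further. All 24 measured trophectoderm and placenta genes were above 17.1 without feeders, and 18 with them. Of 24 measured trophectoderm and placenta genes, 8 were lower and 1 higher, with a median of -0.71 in null cells and 0.04 in heterozygous cells, where 6 of 23 were lower. Besides Cdx2, Krt8 and Krt18, Krt19 read 211.7 and 34.4 (-2.47), Plac1, a placental gene, 112.7 and 22 (-2.14), and Gata3, a trophectoderm factor, 49.2 and 9.2 (-1.96). Tfap2c, another factor of that lineage which ES cells also express, read 347 and 577.9 (0.73). The higher gene was Igf2. In primitive endoderm, 4 of 18 genes were higher and 5 lower, with a median of 0.02. Gata6 and Sox17, which encode factors of the lineage, were lower at 53.9 and 21.1 and at 53 and 16.5, while the higher genes Pdgfra, Plat and Sparc also stand in feeder-type lists. Apoe, the other higher gene, read 810.7 and 1780.4 (1.13).

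In the primed epiblast list 2 of 10 genes were lower, Pou3f1 and Car4, and 0 higher, with a median of -0.37. Pou3f1 read 136 and 54.1 in null cells (-1.26), and 426 and 45.6 in heterozygous cells (-3.10). Of 7 measured primitive streak genes 2 were lower, Kdr and Evx1, and 0 higher, with a median of -0.82. All 7 were above 17.1 without feeders, and 3 with them. Kdr and Evx1 were measured only through the array without feeders, so they could only come out lower. Of 14 neuroectoderm genes 2 were lower, Sox11 and Pax3, and 0 higher, with a median of -0.04. Sox11 was at -1.56 by its brightest probe set and at -0.49 as the mean over probe sets.

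Imprinted genes, expressed from 1 parental copy, lay on both sides, with 4 of 23 higher, 5 lower and a median of -0.01. The shares of all measured genes in the null pair were 7.30% and 2.72%. The 23 include Nckap1, at 1152.5 and 1144.9, which a gene synonym placed in the list although it is not an imprinted gene. Dcn, Grb10, Igf2 and Rian were higher. Grb10, a growth inhibitor, read 127.1 and 1027.3 (2.97). The lower genes were Nnat, Peg3, Mest, Phlda2 and Peg10. Peg3, a zinc finger gene, read 2346.1 and 640.9 in null cells (-1.87), and 435.4 and 276.4 in heterozygous cells (-0.65). Mest read 1413.8 and 503.5 in null cells (-1.48), and 902.5 and 369.6 in heterozygous cells (-1.28).

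Immediate-early genes, which growth factors and stress switch on within minutes, had 0 of 24 measured genes higher and 8 lower in null cells, with a median of -0.63. In heterozygous cells 17 of 28 were higher and 0 lower, with a median of 1.47. Over all measured genes, 7.30% were higher and 2.72% lower in null cells, and 8.83% and 1.94% in heterozygous cells. Egr1, a zinc finger factor, read 309.1 and 353.3 in null cells, against 198.5 and 1853.4 in heterozygous cells. Fos, a subunit of AP-1, read 203.3 and 138.1 in null cells, against 84.3 and 853.6. Egr3 read 33.6 and 14.2 in null cells, against 11.8 and 701.1. In each of these 3 genes the heterozygous array with feeders was the brightest of the 4 and the heterozygous array without feeders the dimmest. Without feeders, the null signal exceeded the heterozygous one in 27 of the 30 genes on the array, and with feeders in 4 of them, against 8990 and 9331 of all 18193 genes.

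The 8 lower immediate-early genes in null cells were Dusp5, Myc, Junb, Atf3, Klf6, Zfp36, Ccn2 and Egr3. Dusp5, a phosphatase that acts on the kinase ERK, read 242.5 and 24.7 in null cells (-3.08), and 117 and 128.4 in heterozygous cells (0.13). Myc, a growth-promoting factor, read 392.2 and 115.9 (-1.72), and 361.6 and 194.3 in heterozygous cells (-0.88). Junb read 133.7 and 47.4 (-1.41), and Atf3 56.8 and 19.7 (-1.34). Both Ccn2 (-0.96 under quantile normalization) and Egr3 (-0.70 with an offset at the median signal) fell short of 2-fold under another setting. Of 17 immediate-early promoters listed, 3 (17.6%) held a CArG box, Dusp5 among them, against 1.18% of all.

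Some genes outside that list also had a negative difference in null cells and a positive one in heterozygous cells. Errfi1, a feedback inhibitor of the EGF receptor, read 995.9 and 391.8 in null cells (-1.34), against 424.4 and 1618 in heterozygous cells (1.92). Ptgs2, the inducible cyclooxygenase, read 230.3 and 180.5 (-0.34), against 46.4 and 744.3 (3.88). Among the genes of feedback on fibroblast growth factor (FGF) and ERK signalling, 1 of 13 was higher and 3 lower, with a median of -0.28. The shares of all measured genes were 7.30% and 2.72%. Phlda1 read 665.8 and 133.9 (-2.27), against 252.8 and 445.6 in heterozygous cells (0.81). The ERK phosphatase genes Dusp4 and Dusp6 read 514.7 and 143.9 (-1.81), and 1288.9 and 459.1 (-1.48). Spry1 was the higher gene, at 83.4 and 193.8 (1.17), while Spry2 (-0.19) and Etv5 (-0.08) lay nearer 0.

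Targets of YAP and TEAD, which respond to cell shape and contact, had 2 of 21 genes higher and 5 lower. Their median was -0.43. In heterozygous cells 9 were higher and 1 lower, with a median of 0.36. Of all measured genes, 7.30% were higher and 2.72% lower in null cells, and 8.83% and 1.94% in heterozygous cells. Ccn2, the classical target, read 1539 and 754.6 (-1.02), against 606.1 and 2214.1 (1.86). Its relative Ccn1 read 755.5 and 558.9, against 360.9 and 1589.7. Ajuba was lower in both lines, at 1172.2 and 290 in null cells and 1232.6 and 191.1 in heterozygous cells. F3, which encodes tissue factor, read 601.5 and 199.8 (-1.57), against 210.5 and 489.8 (1.20). The higher genes were Rbms3, at 25.9 and 431.2, and Ankrd1, at 18.9 and 76.

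Targets of BMP had 0 of 11 genes higher and 4 lower, with a median of -0.51 against 0.13 in heterozygous cells. Over all measured genes in the null pair, 7.30% were higher and 2.72% lower. After Id1, the lower genes were Msx2, at 127.7 and 24.5 (-2.19), Id2, at 413 and 102.3 (-1.97), and Id3, at 660.5 and 293 (-1.16). The ligand gene Bmp4 read 499.2 and 383.7 (-0.38), and the receptor gene Bmpr1a 569.1 and 442.3 (-0.36). In the Nodal and activin list 2 of 10 genes were higher and 0 lower, with a median of 0.24. Lefty2, a target and inhibitor of Nodal, read 167.1 and 444.4 in null cells (1.39), against 427 and 185.7 in heterozygous cells (-1.18). Its relative Lefty1 read 901.6 and 1804.3 (0.997, just short of 2-fold), against 1271.3 and 660.6 (-0.94). Nodal itself read 474.7 and 421.1 (-0.17). The activin subunit gene Inhba was the other higher gene, at 27.8 and 119.3 (1.94).

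In the list of LIF receptor and STAT3 targets, 2 of 16 genes were higher and 1 lower, with a median of 0.07. The receptor gene Lifr read 645.4 and 485.2 (-0.41), the target Socs3 809.9 and 694 (-0.22), and Stat3 395.4 and 301.7 (-0.39). The 3 bright probe sets of Lifr ran from -1.87 to 0.16. The higher genes were Osmr, the oncostatin M receptor, at 46.9 and 467.2 (3.20), and Cebpd, at 68.1 and 163.1 (1.21). The lower gene was Junb. Among Wnt targets, 1 of 10 was higher and 3 lower, with a median of -0.04, beside 7.30% and 2.72% of all measured genes. Axin2, the classical target, read 78.7 and 43.8 (-0.78), Ccnd1, the gene of cyclin D1, 204.1 and 690 (1.74), and Dkk1, Sp5 and Myc were the lower genes. Lef1 read 260.6 and 288.3 in null cells (0.14), against 88.2 and 20.3 in heterozygous cells (-1.90).

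**Figure D4:**
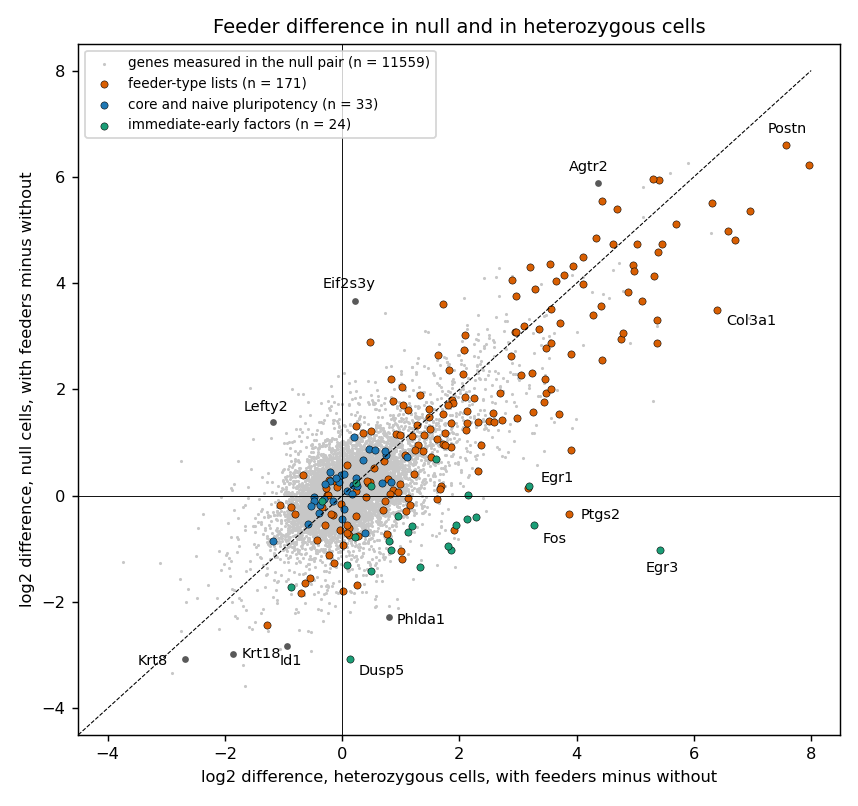
Log2 difference with feeders minus without in null cells (vertical) against that in heterozygous cells (horizontal), for genes measured in the null pair, with the line of equality dashed. Feeder-type genes (orange) extend along the upper right, pluripotency genes (blue) stay near 0, and most immediate-early factors (green) lie to the right of 0 and at or below it, with Egr3 at 5.43 and -1.02.

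Of 21 genes of amino acid and unfolded protein stress, 7 were higher and 0 lower, with a median of 0.45. Among all measured genes, 7.30% were higher and 2.72% lower. Vldlr, a lipoprotein receptor gene, read 20.8 and 167.1 (2.76), Chac1, an enzyme of glutathione breakdown, 22.3 and 145.8 (2.48), and Atf4, the factor that drives amino acid stress genes, 416.6 and 968.7 (1.21). Their heterozygous differences were 3.49, 2.35 and 0.71. Of 26 genes of glycolysis and hypoxia, 6 were higher and 1 lower, with a median of 0.46, against 0.05 in heterozygous cells. The 26 include Pigq, at 419.4 and 439.5, which a gene synonym placed in the list although it is not a glycolysis gene. Adm, which encodes the vasodilator adrenomedullin, read 29.9 and 164.2 (2.29), Pfkp, a phosphofructokinase gene, 303.1 and 779.8 (1.35), and Bnip3, a hypoxia target, 672.8 and 1500 (1.15). Pfkfb3 was the lower gene, at 122.7 and 56.1 (-1.07).

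Genes of sterol synthesis had 0 of 19 past 2-fold and a median of 0.13, against -0.64 in heterozygous cells. Hmgcs1, an early enzyme, read 927.3 and 908.8 in null cells, and 1944.7 and 1055.6 in heterozygous cells. Cyp51 read 106.9 and 141.1 in null cells, and 262.1 and 146.8 in heterozygous cells. In both genes the heterozygous array without feeders was the brightest, and the other 3 were closer together. Fatty acid synthesis (10 genes, median 0.09) and heat shock (13 genes, median -0.15) had 0 genes past 2-fold in null cells. The shares over all measured genes there were 7.30% higher and 2.72% lower.

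Growth and chromatin lists had almost no gene past 2-fold, beside 7.30% higher and 2.72% lower over all measured genes. The count was 0 in either direction for DNA replication (24 measured, median -0.07), mitosis (19, 0.00), polycomb (16, -0.12), the NuRD complex (13, -0.10) and the Sall family (4, -0.13). Sall1 read 448.1 and 576.9 (0.36), and Sall3 83.2 and 41.1 in null cells (-0.94), against 2.4 and 5.2 in heterozygous cells. Each had 2 bright probe sets of opposite sign, at -0.172 and 0.361 for Sall1 and at -0.942 and 0.365 for Sall3. Of 18 targets of p53, Cdkn1a, a cell cycle inhibitor, was higher, at 452.4 and 1177.2 (1.37), and Plk2 lower, at 1027.1 and 421.9 (-1.27, and -0.20 as the mean over its probe sets). Only 1 of the 2 probe sets of Plk2 was bright, so that mean takes in a weak one. Cdkn1a was also the 1 of 7 cell cycle inhibitors past 2-fold. Of 18 interferon and antigen presentation genes, 3 were higher and 1 lower, with a median of 0.51. B2m, the light chain of class I molecules, read 462.4 and 1292.7 (1.47), Ifit2 5.2 and 32.5 (1.92), Stat2 15.5 and 41.8 (1.21) and Gbp2 183 and 44.7 (-1.93). Of 16 housekeeping genes, B2m was the 1 past 2-fold, and the median was 0.01.

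Markers of other cell types that a feeder layer could hold were read over whole lists, beside the same shares over all measured genes, 7.30% and 2.72%. Of 17 macrophage markers on the array, 7 were measured, with 4 higher and 0 lower, and the summed signal of the 17 was 260.5 without feeders and 933 with them. Lyz1 and Lyz2, the lysozyme genes of phagocytes, read 0.4 and 378.2 (6.26), and 8.6 and 168.3 (3.71). These are close copies of each other, so the split of signal between them is uncertain. C1qb, at 1.6 and 26.8, and Adgre1, at 10.9 and 29.9, were the other higher genes. All 4 were measured only through the array with feeders and could only come out higher, so their count supports nothing further. Most of the rise in the summed signal lay in Lyz1 and Lyz2. In heterozygous cells Lyz1, Lyz2 and C1qb were also higher with feeders, while Adgre1 read 19.5 and 13.1. Csf1r (28.1 and 24.4), Cd68 (55.3 and 63.2) and Laptm5 (116.9 and 165.2) were measured and lay between. Of the markers at or under 17.1 on both null arrays, Cd14 read 3 and 12.6, Tyrobp 8.3 and 16.3, Ptprc 3.2 and 10, Itgam 1.7 and 0.4, and Aif1 1.4 on both. The part of macrophages in any difference above was not tested. Of 9 measured endothelial markers, 1 was higher, Cldn5, and 3 lower, Kdr, Esam and Plvap, while Cdh5 read 7.7 and 8.9. Of the markers of skeletal muscle, cartilage and bone, red cells, fat and keratinocytes, 4, 4, 1, 1 and 2 were measured. Of these the cartilage gene Col11a1 was higher, at 23.4 and 87.3, and the muscle gene Actc1 and the keratinocyte gene Sfn lower.

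Where the feeder difference in null cells lay furthest above that in heterozygous cells, the signals were mostly weak. Of these 8 genes, Eif2s3y, a translation factor gene on the Y chromosome, read 1 and 66.4 in null cells (3.66), against 78.2 and 91.8 in heterozygous cells (0.22). Uty, another Y-linked gene, picked after its values were seen, had differences of 0.92 in null cells, from 16.5 to 35.2, and 0.33 in heterozygous cells. Xist, the RNA of the inactive X, likewise picked, read 170 and 346.4 in null cells and 183.7 and 347.4 in heterozygous cells. Myom2 read 0.6 and 51.9 in null cells (3.44), against 39.4 and 68.2 (0.73), and Glcci1 26.6 and 112.7 (1.91), against 36.3 and 19.6 (-0.76). Gpatch11, Creb3l3, Adgrv1, Lncppara and Cdh9 had no null signal above 45.3. At the other end, the 8 genes furthest below were Egr3, Egr2, Ptgs2, Nr4a3, Fos, Tm4sf1, Ereg and Errfi1. Of these, Tm4sf1 and Ereg were higher with feeders in both lines, at 55.1 and 599.4 for Tm4sf1 in null cells (3.34) and 1 and 685.5 in heterozygous cells (6.94).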

How the data were processed

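Total RNA of 4 cultures, 1 array each, was read on Affymetrix arrays. The authors deposited linear signals (array intensity) for 45101 probe sets, computed with MAS5 per the submitters' processing notes. Its version is not given in the sources used here. After trimming 2% at each end, array means were all 100, and no scaling was added. Left out were 64 control probe sets, 932 with several gene symbols and 9160 without a listed one. The remaining 34945 named 18193 genes. For a gene with several probe sets, the one brightest on average (log2, 4 arrays) stood for it.

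Differences were taken as log2(signal + 4.6), the offset being the 25th percentile of all signals, with the filter and 2-fold rule given above. Python 3.11.15, pandas 2.3.3, numpy 2.4.6, scipy 1.17.1 and matplotlib 3.10.9 were used, and the counting was tested on simulated data. With 1 array per group there was no test. Depth has no counterpart in intensities, and the number of arrays limits precision.

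The comparison, the 49 gene lists (789 of their 836 genes were on the array) and the rule for named genes were chosen with earlier results of these data known. List genes were matched by synonym as well, so the 789 include Nckap1 and Pigq in lists where they do not belong. That rule took Pou5f1 and Sall4, the extreme 15 genes at either end, a fixed panel, the members of each list with the largest differences, and the 8 genes furthest above and below the heterozygous difference. Further list members are named as examples. Promoters came from a RefSeq table, using the first start listed for a gene. Alternatives were other offsets, scalings, filters, folds and ways to read a gene.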

Additional observations from a re-analysis of the deposited data

Results flagged for a closer look

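Each of 6 genes taken by the rule for named genes was at least 2-fold different with feeders in both lines, but in opposite directions. Among all genes measured in both pairs, 9 were lower in null and higher in heterozygous cells, and 1 the reverse. F3 (-1.57 and 1.20), given above as an example, was another of these. The difference between the lines was not tested, since each value rests on 1 pair of arrays. Egr3 had a log2 difference of -1.02 in null cells and 5.43 in heterozygous cells, so the null difference lay -6.45 from the heterozygous one. The corresponding gap was -3.26 for Errfi1 (-1.34 and 1.92), -2.88 for Ccn2 (-1.02 and 1.86) and -2.67 for Atf3 (-1.34 and 1.33). For Igfbp4 it was -2.21 (-1.19 and 1.02), and the probe sets of this gene disagreed. Lefty2 was the one gene of the 6 with the opposite order, at 2.57 (1.39 and -1.18).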

How the results depend on the processing

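The counts at least 2-fold higher and lower in the null pair, 844 and 314, were 523 and 172 with an offset at the median signal, and 372 and 103 at 3-fold or 238 and 43 at 4-fold. They were 1338 and 686 without the filter, and 1596 and 921 over every probe set, unnamed ones included. These follow from the construction of each setting: a larger offset or fold takes out weak or small differences, and the latter settings read more features. Quantile normalization gave 728 and 356 and median centring 725 and 356, so the share of higher genes among those counted was 67.2% and 67.1%, against 72.9%. Of the genes higher in heterozygous cells, 86.2% in place of 53.8% were higher in null cells when that class was set at 4-fold. Of 1911 values of named genes under the alternatives, 1864 stayed on their side of 2-fold, 47 crossed it and 0 called values changed sign. Of 407 list medians, 390 stayed and 17 crossed, the latter in the lists of mesenchymal transcription factors, growth factors, IGF binding proteins, Hox genes, macrophage and keratinocyte markers. The cause of single crossings was not tested. With 1 array a side, a chance difference between cultures and a feeder difference cannot be told apart.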
